A study of Xenopus laevis with 12 samples.

Results

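In blastula explants, Sox3 peaks were unevenly spread over the transcription start sites (TSSs) of the Xenopus laevis genome. A locus is here the set of stage 9 peaks that share a nearest TSS, and the loci described were selected on their number of stage 9 peaks, 8 or more on the assembled chromosomes. There were 2170 such dense loci among 42399 loci with a peak (5.12%). They held 23572 of the 115224 peaks on the 18 assembled chromosomes (20.5%), from a list of 124076 peaks in all. They were set against the 14831 loci with 2 to 3 peaks, which held 35151 peaks. Since the stage 9 peaks chose the loci, their number, spread, features and area are given as a description with no test. The rule itself used no stage 11.5 value, but it was set with earlier results on the stage 11.5 overlap of these loci known.

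Sox3 is a SoxB1 transcription factor that binds DNA through an HMG domain and is known for keeping ectodermal cells in an uncommitted or neural state. Such factors often bind several enhancers spread over the introns and the intergenic DNA around a developmental gene. Xenopus laevis is an allotetraploid whose chromosomes come as L (long) and S (short) partners from different ancestors, so that many genes have a copy on each. The nearest TSS is an assignment by position and does not show which gene an element regulates.

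The study precipitated Myc-tagged Sox3 from explants of wild-type embryos. At stage 9, 3 libraries came from animal pole explants given Sox3 mRNA and 3 control libraries from untreated ones. At stage 11.5, 3 libraries came from neural plate border explants given Sox3, Wnt8a and Chordin mRNA and 3 control libraries from explants given Wnt8a and Chordin mRNA without Sox3. The precipitated protein came from injected mRNA, each sample pooled 50 explants, and each stage has 1 deposited list called over its libraries, so peaks and loci are not replicates, no spread between libraries could be given and the 95% intervals below cover counting error only. These intervals treat peaks or loci as independent, also where the compared peaks share a locus, and do not cover clustering of peaks within loci. Blastula libraries were sequenced on a NextSeq and neural plate border libraries on a NovaSeq. Stage, sequencer and the Wnt8a and Chordin mRNA therefore cannot be told apart. The depth is unknown for both lists.

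The dense loci had a median of 10 peaks, with quartiles of 8 and 12 and a maximum of 51, and 63 of them had 20 or more. The threshold cut through a continuous range. The 600 loci with exactly 8 peaks, just inside it, had a median span of 71215 bp, and 48.9% of their peaks were intergenic. The 950 loci with 7 peaks, just outside it, had a median span of 57199 bp and 48.3% intergenic peaks. Together the dense loci spanned 301 Mb from first to last peak, or 12.02% of the assembled chromosomes, against 233 Mb (9.29%) for the loci with 2 to 3 peaks.

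The peaks of a dense locus were scattered over a long stretch rather than packed together. The median span was 103765 bp (quartiles 57909 and 190928 bp, 95% interval of the median 98451 to 108161 bp), against 8168 bp for loci with 2 to 3 peaks. The gap between neighbouring peaks had a similar median at both, 5739 bp in dense loci and 4892 bp in loci with 2 to 3 peaks. Gaps under 1 kb made up 18.1% of gaps in dense loci and 20.6% in loci with 2 to 3 peaks, while gaps over 50 kb made up 6.05% in dense loci and 3.69% in loci with 2 to 3 peaks. The shortest gap in a dense locus was 101 bp. The largest gap took a median of 33.5% of the span of a dense locus, against 83.3% in loci with 2 to 3 peaks and 52.5% in loci with 4 to 7. A locus with 2 peaks has only 1 gap, which fills most of its span. The contrasts in span and in largest gap can therefore not be told apart from the peak number that chose the loci. A window of 10 kb held at most a median of 4 peaks of a dense locus, and the fullest window held 11. When the stretch between the flanking peaks of other loci was divided by the number of peaks plus 1, dense loci had a median of 16870 bp per peak and loci with 2 to 3 peaks 20864 bp. This value, which contains the peak number that chose the loci, was 17327 bp for loci with 4 to 7 peaks, so it marked no step at dense loci, and the gaps between peaks ran the other way.

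**Figure D1:**
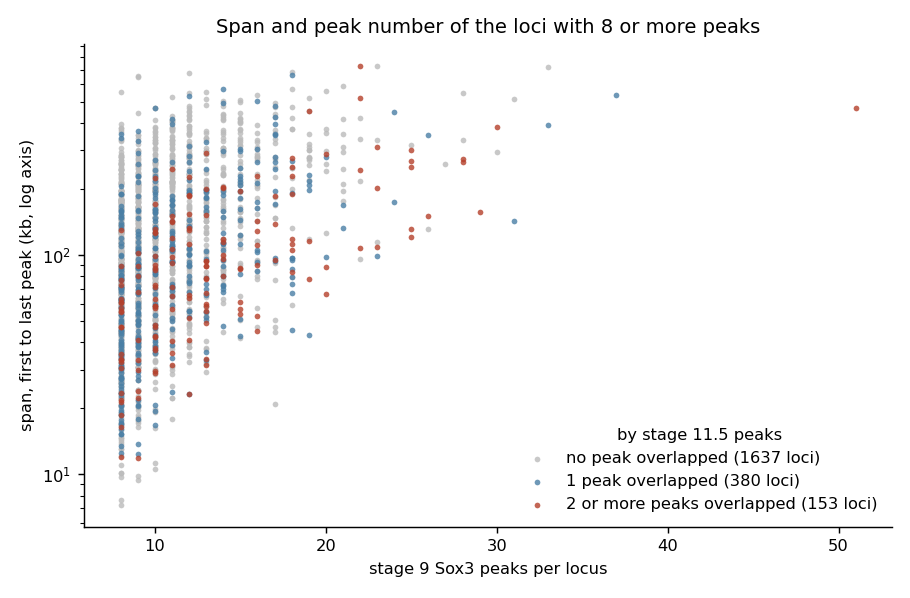
Each point is 1 of the 2170 loci with 8 or more stage 9 Sox3 peaks, with its number of peaks (x axis) and its span from first to last peak in kb (y axis, log scale), coloured by how many of its peaks overlap a stage 11.5 peak. Spans run from 7.26 to 727 kb, and the 153 loci with 2 or more overlapped peaks lie across the whole range of peak numbers.

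The locus with the most peaks lay on chromosome 4L of the 9.2 genome (chr4L:68180209-68645649, listed as rna31818; the lists pair no gene names with their identifiers). Its 51 peaks covered 465 kb, with 39 upstream and 12 downstream of the TSS. Of these, 38 were intergenic, 11 lay in introns, 1 at the promoter and 1 in an exon. Its summed area, 12734, was also the largest of any dense locus. The next locus, on chromosome 5S (chr5S:4139797-4675919, rna15026), had 37 peaks, all upstream of its TSS and up to 536 kb away, of which 36 were annotated to introns of another transcript. The third and the fourth, both on 3L, had 33 peaks each over 389 and 717 kb, with 31 and 32 of the 33 intergenic. Then came loci on 3S and 2L with 31 peaks each and on 7S and 1L with 30 each. The one on 3S packed its 31 peaks into 143 kb with a median gap of 2699 bp, while the one on 2L spread 31 over 514 kb, 30 of them in introns.

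At the short end, a locus on 6S held 8 peaks in 7.26 kb, one on 5L held 8 in 7.61 kb and one on 9_10L held 9 in 9.45 kb. Each of these 3 fitted into a single 10 kb window, with median gaps of 338, 669 and 313 bp. At the long end, a locus on 1L spread 22 peaks over 727 kb, one on 2L 23 peaks over 726 kb, and the locus on 3L with 33 peaks covered 717 kb. The 2L locus had 22 of its 23 peaks in intergenic DNA, while the 1L locus had 19 of 22 in introns. Behind 4L, the largest summed areas belonged to the 3S locus above (8572) and to a locus on 8S (8501), whose 19 peaks lay within 77.4 kb and whose strongest peak, with an area of 950, lay 196 bp upstream of the TSS.

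Dense loci usually surrounded their TSS. Peaks lay on both sides in 1452 loci (66.9%), on the upstream side alone in 300 (13.8%) and on the downstream side alone in 418 (19.3%). Among loci with 2 to 3 peaks these shares were 29.8%, 30.3% and 39.9%. More peaks give more chances of a peak on each side. This contrast can therefore not be told apart from the peak number that chose the loci. Of the single peaks, 46.7% were upstream in dense loci and 44.9% in loci with 2 to 3 peaks. Distances were similar on the 2 sides of dense loci, with a median of 38484 bp upstream and 34951 bp downstream. In loci with 2 to 3 peaks these medians were 7051 and 7374 bp.

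Binding near the start site was also present in most dense loci. At least 1 peak lay within 5 kb of the TSS in 65.2% of dense loci, against 61.9% of loci with 2 to 3 peaks, and the nearest peak was a median of 1990 bp away in dense loci and 2924 bp in loci with 2 to 3 peaks. The farthest peak was a median of 92198 bp away, against 12276 bp. A peak beyond 100 kb was present in 46.5% of dense loci and in 1.94% of loci with 2 to 3 peaks. These measures by locus also depend on how many peaks a locus holds. As a share of peaks, 41.0% in dense loci lay beyond 50 kb and 13.4% within 5 kb, against 5.93% and 41.0% in loci with 2 to 3 peaks. A locus has 1 TSS, so these shares depend on the peak number as well. The share within 5 kb was 58.8% in loci with 1 peak and 25.6% in loci with 4 to 7 peaks.

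By annotation, dense loci were mainly intergenic. Intergenic peaks made up 57.8% of their peaks and intronic peaks 36.0%, against 35.5% and 43.6% in loci with 2 to 3 peaks. Promoter peaks were 2.61%, exonic peaks 2.48% and peaks at transcription termination sites (TTSs) 1.17% of dense locus peaks, against 9.95%, 5.99% and 5.00%. The promoter share was 21.0% in loci with 1 peak and 5.31% in loci with 4 to 7 peaks. With 1 TSS per locus, it cannot be told apart from the peak number that chose the loci. Counted by locus, where more peaks again give more chances, 550 dense loci (25.3%) had a promoter peak, against 21.3% of loci with 2 to 3 peaks. Within the dense loci the intergenic share was higher where there were more peaks. It was 48.9% with 8 peaks, 54.1% with 9 to 10, 61.7% at 11 to 14, 65.4% at 15 to 19 and 66.8% at 20 or more. Outside them it was 27.7% in loci with 1 peak and 43.7% in loci with 4 to 7 peaks, and 41.6% over all peaks. The intergenic share can therefore not be told apart from the peak number either.

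The 2 sides of the TSS differed in annotation. Upstream peaks of dense loci were 75.05% intergenic and 19.6% intronic, while downstream peaks were 42.6% intergenic and 50.3% intronic. Of the 8475 intronic peaks of dense loci, 54.0% lay in the transcript whose TSS was nearest and 27.1% in a first intron, against 48.0% and 31.4% in loci with 2 to 3 peaks. Of the same 8475 peaks, 25.5% lay upstream of the nearest TSS, like those of the 5S locus, against 30.6% in loci with 2 to 3 peaks. These shares can overlap.

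Single peaks of dense loci were slightly larger than those of loci with 2 to 3 peaks. Area was taken as the product of score and width in bp, over 1000, and is a lower bound where the score had reached its maximum of 1000. The median was 108 in dense loci (95% interval 106 to 110) and 97.1 in loci with 2 to 3 peaks (95.3 to 99.0). Median widths were 238 and 226 bp and median scores 529 and 506, with dense loci higher in each, and 20.4% of dense locus peaks were at the maximum score, against 18.1%. Areas within a dense locus were unequal. The strongest peak, that of the largest area, had a median area of 587 and held a median of 29.4% of the summed area of its locus, 4.86 times the median peak of that locus. The strongest of 2 to 3 peaks had a median area of 235. Summed over the locus, the median area was 1939 in dense loci and 340 in loci with 2 to 3 peaks. The largest and the summed area of a locus rise with its number of peaks. These 2 contrasts can therefore not be told apart from the peak number that chose the loci. The strongest peak was also the one nearest the TSS in 240 dense loci (11.1%), and it was a promoter peak in 70.

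Few of these sites were also in the stage 11.5 list. That list was far shorter, with 4337 peaks on the assembled chromosomes against 115224 at stage 9. A low share of stage 9 peaks overlapped therefore follows in part from the list sizes. Loss of Sox3 at these sites was not tested. A stage 11.5 peak overlapped 736 of the 23572 peaks of dense loci by at least 1 bp, or 3.12% (Wilson 95% interval 2.91 to 3.35%), against 844 of 35151 peaks (2.40%, 2.25 to 2.57%) in loci with 2 to 3 peaks and 2.56% of all peaks on the assembled chromosomes. The difference was 0.721 percentage points (Newcombe 95% interval 0.450 to 0.998). It was 0.219 (0.0843 to 0.360) with 50% of the stage 9 peak covered, where the shares were 0.785% and 0.566%. When loci were recounted from peaks within 50 kb of the TSS alone, which left 921 dense loci, it was 2.17 (1.72 to 2.64). At least 1 peak was overlapped in 533 dense loci (24.6%, 22.8 to 26.4%), against 782 loci with 2 to 3 peaks (5.27%) and 5.98% of all loci, a difference between the first 2 of 19.3 percentage points (17.5 to 21.2) that was 6.20 with 50% of the stage 9 peak covered. The share of loci counts a locus once however many peaks it holds, and it differed far more than the share of peaks. Loci with more peaks have more chances of an overlap, so the difference between loci cannot be separated from the peak number that chose them. The share of peaks overlapped was 3.02% at loci with 8 peaks, 2.77% at 9 to 10, 3.10% at 11 to 14, 3.65% at 15 to 19 and 3.93% (3.06 to 5.02%) at 20 or more. It was 2.87% at loci with 7 peaks, so the threshold itself marked no step.

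When the loci with 2 to 3 peaks were weighted to the same mix of 10 area classes as the dense loci, their share was 2.68%, which left a difference of 0.445 percentage points. Weighted instead to the same mix of 6 distance classes, their share was 1.76% and the difference was 1.36 percentage points. With area and distance weighted together, in 10 area classes and 3 wider distance classes, the difference was 0.794. Like area made the difference smaller, and like distance made it larger.

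Within a dense locus, the strongest peak was the one most often overlapped. Of the 2170 strongest peaks, 270 (12.4%, 11.1 to 13.9%) overlapped a stage 11.5 peak, against 466 of the 21402 others (2.18%, 1.99 to 2.38%), a difference of 10.3 percentage points (8.93 to 11.7). It was 1.01 (0.533 to 1.66) where a stage 11.5 peak had to cover 50% of the stage 9 peak. In the 253 dense loci with no peak at the maximum score it was 3.58 (1.75 to 6.75), from 3.95% of strongest and 0.376% of other peaks. Fewer peaks were overlapped in both settings, which by itself lowers a difference in percentage points. As a ratio of shares, the contrast was also weaker with 50% covered, but not in the loci with no peak at the maximum score. Area contains width, and a wider peak offers more bases for a 1 bp overlap but is harder to cover by 50%. The part of width in the difference between strongest and other peaks was not tested. In loci with 2 to 3 peaks the strongest peak was overlapped in 4.29% and the others in 1.02%, a difference of 3.26. The strongest of more peaks is larger, with a median area of 587 in dense loci and 235 in loci with 2 to 3 peaks. The contrast between the 2 groups can therefore not be told apart from the peak number. By area rank within dense loci, the share was 12.4% for the largest, 7.65% for the second, 4.24% for the third and 2.76% for the fourth, and 0.531% from the ninth on. The strongest peaks were 9.21% of all dense locus peaks and 36.7% of the overlapped ones, and the 3 strongest were 27.6% and 71.7%. Of the 380 dense loci with exactly 1 overlapped peak, it was the strongest in 172 (45.3%) and one of the 2 strongest in 265 (69.7%).

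The difference by nearness to the TSS was smaller. The peak nearest the TSS was overlapped in 86 loci (3.96%), against 3.04% of the other peaks, a difference of 0.926 percentage points (0.146 to 1.86). This interval included 0 where 50% of the stage 9 peak had to be covered (0.0999, -0.239 to 0.600) and where only peaks of area 40 or more were counted (1.06, -0.102 to 2.48). From the nearest to the ninth and later peaks by distance the share stayed between 2.76% and 3.96%. In loci with 2 to 3 peaks the difference was 0.197 (-0.126 to 0.528). Of the 380 loci with 1 overlapped peak, the overlapped one was nearest the TSS in 45 and at the promoter in 22.

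**Figure D2:**
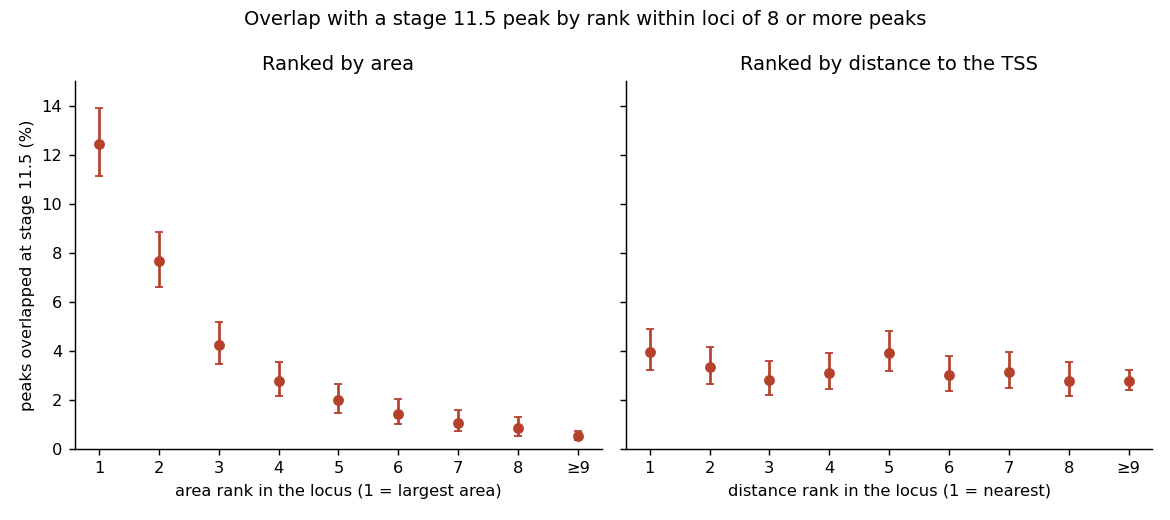
Share of dense locus peaks overlapping a stage 11.5 peak (y axis, percent), by rank in area within the locus (left) and by rank in distance to the TSS (right). Points are shares and bars Wilson 95% intervals. Ranks 1 to 8 hold 2170 peaks each, and the share falls steadily with area rank, to 0.531% at rank 9 and later, while it stays between 2.76% and 3.96% across distance ranks.

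Promoter peaks stood between these. Of 615 promoter peaks in dense loci, 37 (6.02%, 4.40 to 8.18%) were overlapped, against 3.04% of the other 22957 peaks, a difference of 2.97 percentage points (1.33 to 5.15). It was 0.530 with 50% of the stage 9 peak covered, with an interval that included 0 (-0.122 to 1.78), and 7.21 (4.92 to 9.97) with a stage 11.5 peak within 1 kb. In loci with 2 to 3 peaks the promoter peaks were overlapped in 3.49% and the others in 2.28%. At dense locus promoters, 21 of the 70 peaks that were the strongest of their locus (30.0%, 20.5 to 41.5%) were overlapped. Of the 545 others, 16 were overlapped (2.94%, 1.82 to 4.72%). Among all strongest peaks of dense loci the share was 12.4% (11.1 to 13.9%). Promoter peaks were not compared with other peaks at like area. The median area of the dense promoter peaks, 106, was like that of intronic (109) and intergenic (108) ones. Introns had 3.28% overlapped and intergenic DNA 2.89%, and since these classes are large, 393 of the 736 overlapped peaks (53.4%) were intergenic and 278 (37.8%) intronic.

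Among peaks of like area, the strongest of a locus and the others had similar shares with overlapping intervals. All stage 9 peaks were cut into 10 area classes of equal number, and the tenth ran from an area of 495 to 4299, so areas within it still differed. In that class, 245 of 1415 dense locus peaks that were the strongest of their locus were overlapped (17.3%, 15.4 to 19.4%), against 205 of 1256 that were not (16.3%, 14.4 to 18.5%). In the ninth class the shares were 4.78% (3.21 to 7.07%) of the strongest and 6.20% (5.22 to 7.35%) of the others. The tenth class held 11.3% of dense locus peaks and 450 of the 736 overlapped ones (61.1%). The overlapped peaks of dense loci had a median area of 570.5 and a median width of 598 bp, against 103 and 231 bp for those not overlapped, and 74.6% of them were at the maximum score. In classes 1 to 8 at most 1.77% of dense locus peaks were overlapped. In the tenth class, 16.8% of dense locus peaks (15.5 to 18.3%) and 14.5% of peaks of loci with 2 to 3 peaks (13.3 to 15.7%) were overlapped, and in the ninth 5.93% (5.06 to 6.93%) and 4.33% (3.70 to 5.05%), where the intervals did not overlap. In classes 1 to 8 the intervals of both groups overlapped.

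By distance, overlap in dense loci was highest near the TSS, at 6.06% (4.80 to 7.63%) within 1 kb, and was 3.49% at 10 to 50 kb and 1.49% (1.19 to 1.86%) beyond 100 kb. Loci with 2 to 3 peaks had 3.23% within 1 kb, 2.07% at 10 to 50 kb and 0.735% beyond 100 kb, and were lower in all 6 distance classes, with intervals that overlapped those of dense loci in the classes 1 to 5 kb and beyond 100 kb. Large peaks far from the TSS were also overlapped. In the tenth area class, 19.7% of dense locus peaks within 5 kb, 17.1% of those at 5 to 50 kb and 14.4% of those beyond 50 kb were overlapped. Upstream and downstream peaks of dense loci were overlapped in 2.95% and 3.27%, a difference of -0.324 percentage points (-0.766 to 0.123).

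**Figure D3:**
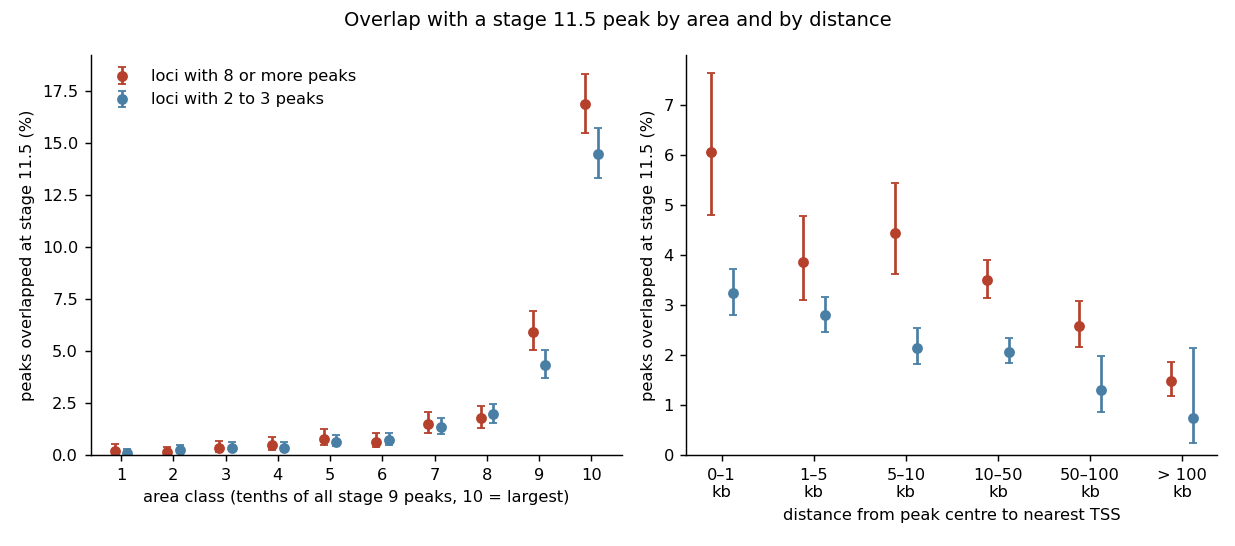
Share of peaks overlapping a stage 11.5 peak (y axes, percent) in loci with 8 or more peaks (red) and in loci with 2 to 3 peaks (blue), by area class (left, 10 classes of equal number over all stage 9 peaks) and by distance to the nearest TSS (right). Points are shares and bars Wilson 95% intervals. The shares are 16.8% and 14.5% in the tenth area class, and 6.06% and 3.23% within 1 kb of the TSS.

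Most dense loci with an overlap had a single overlapped peak. No peak was overlapped in 1637 loci, 1 in 380, 2 in 121, 3 in 20, 4 in 8, 5 in 3 and 7 in 1. Overlapped peaks of the 153 loci with 2 or more were mostly not side by side: of 203 pairs of consecutive overlapped peaks, 64 (31.5%) had no other peak between them. The median gap of the 203 pairs was 10749 bp. The share of neighbours that the peak numbers alone would give was not computed, so these values do not show that overlapped peaks were dispersed. The loci with the most peaks were not those with the most overlapped ones. The 4L locus with 51 peaks had 2 overlapped, one at area rank 11 and -122489 bp and one at area rank 23 and -105872 bp from the TSS, while its strongest peak, with an area of 914 and its centre 2968 bp downstream of the TSS, was not overlapped. The 5S locus had 1 of 37, at area rank 3. Among the 8 loci with most peaks, 3 had none.

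Counted by single TSS, the locus with most overlapped peaks, on chromosome 9_10S (chr9_10S:44283573-44340691, rna62570), had 10 peaks of which 7 were overlapped. It was an uneven locus, in which 9 peaks had their centres within 10 kb of each other, 43 to 53 kb upstream of the TSS in intergenic DNA, and the tenth lay 3765 bp downstream of the TSS, so the largest gap took 81.8% of the span. The overlapped peaks had areas of 98.8 to 451, and 5 of them were at the maximum score. Its span held 14 stage 11.5 peaks, between 53.0 and 42.5 kb upstream of the TSS, and 13 of these had the maximum score, which 13.7% of stage 11.5 peaks on the assembled chromosomes reached. Leaving this locus out, the difference in overlapped peaks between dense loci and loci with 2 to 3 peaks was 0.693 percentage points.

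The next loci were more even. On chromosome 9_10L (chr9_10L:55895280-56006986, rna71477), 5 of 18 peaks were overlapped, at area ranks 1, 2, 3, 4 and 8. Their centres lay at -56887, -1211, 5486, 6379 and 28783 bp from the TSS (negative upstream), with areas of 821, 933, 161, 631 and 691. On 4S, the 5 overlapped of 17 peaks were the 5 strongest of the locus. They had areas of 445 to 810, against 21.2 to 227 for the other 12, and lay on both sides of the TSS, 2 upstream at -50070 and -40778 bp and 3 downstream at 7295, 9801 and 14389 bp. On 1S, 5 of 13 were overlapped, and here area ranks 1, 3, 5, 6 and 13 were among them, the last being the smallest peak of the locus with an area of 40.0. On 1L (chr1L:172665631-172952960), 4 of 20 peaks were overlapped, and all 20 lay upstream, with the overlapped ones at distances of -115.7 to -14.89 kb from the TSS. In these 4 loci the stage 11.5 peaks scored between 150 and 640 and none reached the maximum.

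**Figure D4:**
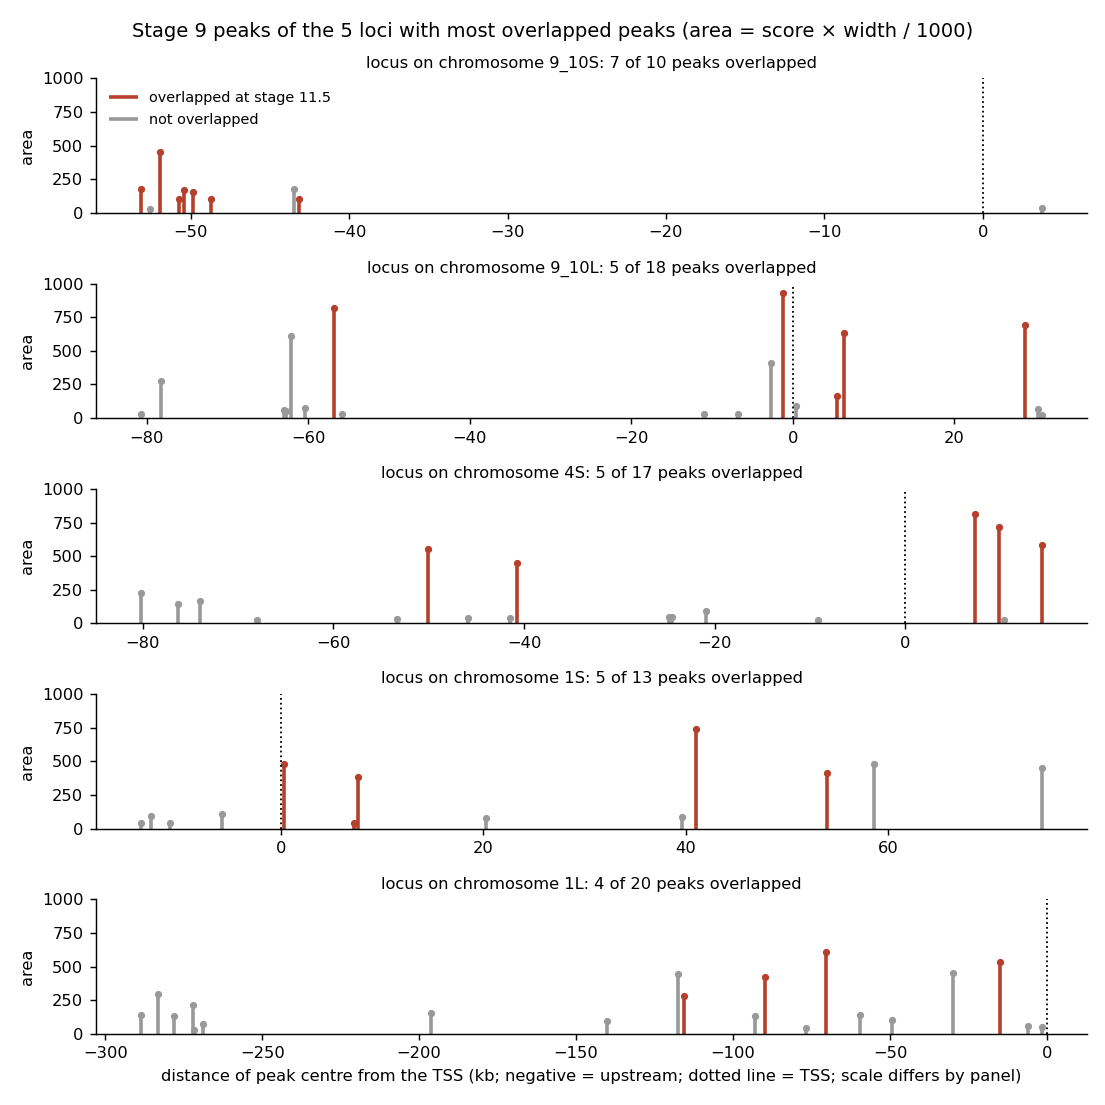
Stage 9 peaks of the 5 dense loci with most overlapped peaks, drawn at the distance of their centre from the TSS (x axes, kb, negative upstream, scale differs by panel) with their area as height (y axes, the product of score and width in bp, over 1000). Red peaks overlap a stage 11.5 peak and grey ones do not. In the 4S locus the 5 overlapped peaks, with areas of 445 to 810, stand above all others, while the 9_10S locus has its 7 overlapped peaks in a cluster 43 to 53 kb upstream.

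Seen from stage 11.5, 932 of the 4337 peaks on the assembled chromosomes (21.5%) had the TSS of a dense locus as their nearest, spread over 622 of the 2170 TSSs (28.7%). This share was close to the 20.5% of stage 9 peaks that the dense loci held. Of the 932, 757 (81.2%, 78.6 to 83.6%) overlapped a stage 9 peak, against 862 of 1175 (73.4%, 70.8 to 75.8%) nearest to the TSSs of loci with 2 to 3 peaks. Among all 3405 peaks nearest to a TSS other than those of dense loci, the share was 66.9%. The dense TSSs were chosen by their number of stage 9 peaks, so the rule itself favours a higher share there.

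Dense loci were more evenly shared between the L and S chromosomes than loci with 2 to 3 peaks. There were 1138 dense loci on L and 1032 on S, an L share of 52.4% (50.3 to 54.5%), against 8397 of 14831 loci with 2 to 3 peaks (56.6%, 55.8 to 57.4%). The difference was -4.18 percentage points (-6.42 to -1.93), and against loci with 4 to 7 peaks it was -1.99 with an interval that included 0 (-4.37 to 0.375). The L chromosomes made up 54.6% of the assembled length. The L share was 57.6% in loci with 1 peak, 54.4% in loci with 4 to 7 peaks and 56.4% of all loci. It was 54.6% at loci with 7 peaks, 54.5% at 8 and 54.0% at 20 or more, so the threshold marked no step. The contrast can therefore not be told apart from the peak number that chose the loci. Per 10 Mb there were 8.32 dense loci on L and 9.06 on S, while loci with 2 to 3 peaks numbered 61.4 on L and 56.5 on S. The L share of dense loci was below that of loci with 2 to 3 peaks in 8 of 9 chromosome pairs. It was lowest in pair 8, with 73 dense loci on L and 91 on S (44.5%, 37.1 to 52.2%). Pair 2 was the exception, with 169 on L and 121 on S (58.3%, 52.5 to 63.8%), against 52.0% of its loci with 2 to 3 peaks. In every pair other than pair 8 the intervals of both groups overlapped.

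**Figure D5:**
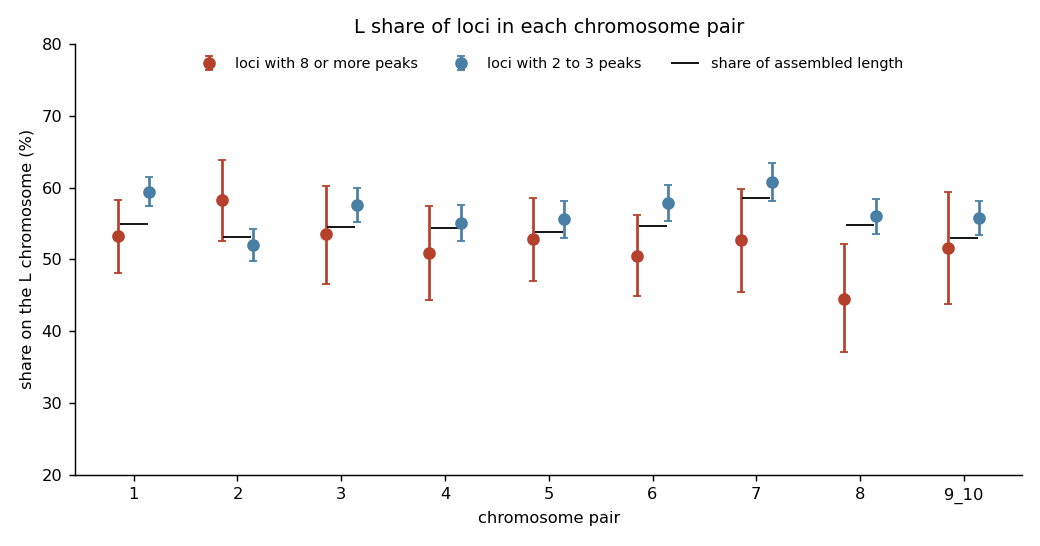
Share of loci on the L chromosome of each pair (y axis, percent, from 20 to 80) for loci with 8 or more peaks (red) and loci with 2 to 3 peaks (blue), with Wilson 95% intervals, and the L share of the assembled length (black dash). The red point lies below the blue one in 8 of 9 pairs, and pair 2 is the exception at 58.3% and 52.0%.

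Dense loci on the L and S chromosomes had much the same make-up. Both had a median of 10 peaks, with a median span of 99875 bp on L and 106692 bp on S, a median gap of 5664 bp on L and 5838 bp on S, and 56.0% intergenic peaks on L and 59.7% on S. Overlap with stage 11.5 was 3.19% of peaks on L and 3.05% on S, a difference of 0.147 percentage points (-0.299 to 0.591). At least 1 overlapped peak was found in 25.2% of dense loci on L and 23.8% on S, a difference of 1.38 percentage points (-2.25 to 4.99). The strongest peak was overlapped in 11.8% (10.0 to 13.8%) of loci on L and 13.2% (11.3 to 15.4%) on S. Partner copies of a gene were not matched, since the lists give no gene names.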

How the data were processed

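ChIP-seq peak lists of both stages were used as deposited. Per the paper's methods and the labels' processing notes, the authors used fastp for trimming and bowtie2 for alignment to Xenopus laevis build 9.2, processed the alignments with SAMtools and Picard, called peaks by Genrich (minimum area 20, mitochondrial sequence excluded, Sox3 against control libraries) and annotated them with HOMER. The deposited score is the authors' peak score, a whole number up to 1000, and the deposited distance is from the peak centre to the nearest TSS. Replicates are named in the stage 9 header but not in that of stage 11.5. Explants were crosslinked for 15 min and chromatin tagged with Tn5 for 40 min.

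Loci, gaps, areas and overlaps of at least 1 bp were computed with Python 3.11.15, numpy 2.4.6, pandas 2.3.3 and scipy 1.17.1, and plotted with matplotlib 3.10.9. TSS positions came from peak centres and distances, and chromosome lengths were taken up to the last peak. Shares carry Wilson, differences Newcombe and medians order-statistic 95% intervals; no p-value was computed. The functions were tested on simulated data. Peaks on unplaced scaffolds were left out. Depth is unknown, as the lists hold no read counts.

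The loci and comparisons were chosen with earlier results of these data known, among them that peaks of loci with more peaks were more often overlapped, so that pattern is no independent support. Loci named were the 8 with most peaks, the 5 with most overlapped peaks, and the 3 shortest, 3 longest and 3 largest in summed area. These ranks count peaks by single TSS, with close TSSs not pooled, and would differ if they were pooled. None of the 2170 identifiers of the dense loci matched the gene table (assembly 10.1), and no genome of build 9.2 was used here, so neither gene names nor sequences are given. Alternatives covered the peak threshold, the overlap rule, merging of close peaks, limits on distance and area, the comparison loci, area and distance weighting, the definitions of strongest and promoter peak, unplaced scaffolds and pooling of close TSSs.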

Additional observations from a re-analysis of the deposited data

How the results depend on the processing

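Of 62 recomputed values of the 7 main results, 36 lay within the interval of the reported value (counts within 1.5 times) and 26 lay outside, and none changed sign. No paired analysis was possible because values come from 1 list per stage without replicate columns, and for the same reason no replicate could be left out. The number of dense loci was 4484 at 6 peaks or more, 1162 at 10 or more, 1446 with peaks under 1 kb apart merged, 921 with peaks within 50 kb of the TSS alone and 1228 with peaks of area 40 or more. Dense loci with an overlapped peak minus loci with 2 to 3 peaks was 14.3 percentage points at 6 peaks or more, 23.8 at 10 or more, 25.9 within 50 kb, 23.1 at area 40 or more and 13.6 against loci with 4 to 7 peaks. The difference in overlapped peaks was 1.18 with stage 11.5 peaks within 1 kb, 2.17 within 50 kb of the TSS, 1.17 at area 40 or more, 0.445 weighted by area and 1.36 weighted by distance. Strongest minus other peaks was 8.58 at 6 peaks or more and 3.58 in the 253 loci with no peak at the maximum score (10 of 253 strongest peaks, 3.95%, 2.16 to 7.12%, and 8 of 2125 others). Nearest minus other peaks was 2.04 after merging and 1.95 within 50 kb, and promoter minus other peaks 7.21 with stage 11.5 peaks within 1 kb and 5.89 after merging.

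The strictest rule, 50% of the stage 9 peak covered, was met by 0.785% of dense locus peaks and 0.566% of peaks of loci with 2 to 3 peaks, and lowered every overlap difference, to 0.219 for dense loci against loci with 2 to 3 peaks, 6.20 for loci with an overlapped peak, 1.01 for strongest against other peaks, 0.0999 (-0.239 to 0.600) for nearest and 0.530 (-0.122 to 1.78) for promoter peaks, so the last 2 intervals include 0. Fewer peaks met this rule than the 1 bp rule (3.12% and 2.40%), which by itself lowers a difference in percentage points. As a ratio of shares, the contrasts of strongest, nearest and promoter peaks with the others were also weaker. That of dense locus peaks with peaks of loci with 2 to 3 peaks was not. The nearest peak's interval also included 0 at area 40 or more, at 1.06 (-0.102 to 2.48). Against loci with 4 to 7 peaks, the L share difference was -1.99 (-4.37 to 0.375). Weighting by distance, pooling of TSSs within 1 kb (2437 dense loci) and leaving out the 9_10S locus were chosen after seeing the data. The median span was 77394 bp over the middle 80% of peak centres and 141176 bp with close peaks merged, when the median gap was 9028 bp.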

Other observations

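Dense loci often stood next to one another. Of the 2170, 901 (41.5%) had another dense locus as a direct neighbour on the chromosome, against 8.08% of loci with 2 to 3 peaks and 9.76% of all loci. The stretch over which a locus gathers peaks depends on the spacing of TSSs. Whether dense neighbours go with that spacing was not tested. There were 333 runs of 2 dense loci and 75 of 3 or more, with 4 as the longest. The run of 4 with most peaks, chr2L:22582563-24330893, held 68 peaks, 4 of them overlapped at stage 11.5, and included the 2L locus with 23 peaks over 726 kb. Of the 493 pairs of neighbouring dense loci, 15 had TSSs within 1 kb of each other.

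On unplaced scaffolds, which were left out above, 69 further loci had 8 or more peaks. They held 700 peaks, and the largest had 24.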
